A study of Mus musculus with 18 samples.

Results

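The replication-dependent histone genes were followed in newly made RNA of mouse embryonic stem cells that lacked or carried Med24 and in which the ERK pathway was switched on for 0, 2 or 8 h. They were taken as all gene symbols that begin with Hist1h, Hist2h, Hist3h or Hist4h and that had at least 10 counts in at least 3 of the 18 libraries. Of 67 such symbols, 55 met this minimum, out of 25897 genes in the table. They comprised 5 genes of the linker histone H1, 12 of H2A, 14 of H2B, 12 of H3 and 12 of H4. By GENCODE M21 (GRCm38), 46 lie in the Hist1 cluster on chromosome 13, 8 in the Hist2 cluster on chromosome 3 and 1, Hist4h4, on chromosome 6. All 55 were among the 14128 genes tested.

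The 12 symbols below the minimum were Hist1h1t, Hist1h2aa, Hist1h2ao, Hist1h2ap, Hist1h2ba, Hist1h2bq, Hist1h2br, Hist1h4m, Hist2h2aa1, Hist2h2aa2, Hist3h2a and Hist3h2ba. Just outside it, Hist3h2ba and Hist1h2aa reached 10 counts in 2 libraries each, and just inside it Hist2h2be and Hist1h2an did so in 16 each. In 8 of the 12, no library had more than 2 counts.

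Core histones H2A, H2B, H3 and H4 form the protein spool on which DNA is wound, and H1 binds the DNA between spools. Most of this protein is made in S phase, when new DNA must be packed, from gene copies that sit in clusters and are read by RNA polymerase II at a nuclear site organised by NPAT. Their messages have no introns and end not in a poly(A) tail but in a short stem-loop that SLBP binds. When replication stops, these messages are degraded. Embryonic stem cells divide fast and spend much of their cycle in S phase. Mediator, to which Med24 belongs, is the large complex that passes signals from transcription factors to RNA polymerase II.

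All 6 groups were E14tg2a embryonic stem cells of 129SV background with Med24 knocked out. All also carried a tetracycline-regulated FLAG-Med24 cDNA and the cassette cRAF-ErT2-T2A-RTTA, whose cRAF-ErT2 kinase 4-hydroxytamoxifen (4OHT) activates and so turns on ERK. Cells called KO had no doxycycline, and cells called WT had doxycycline at 500 nM, which switches on the cDNA. The WT cells are therefore knockout cells with an induced transgene, and effects of doxycycline cannot be told apart from those of Med24. Both kinds had grown in serum with LIF and 2 µM Chir99021 (a GSK3 inhibitor). For 24 h before treatment the medium held serum, LIF and 250 nM PD173074, an FGF receptor inhibitor, and then 250 nM 4OHT was given for 0, 2 or 8 h. Ethynyl uridine at 5 mM, given 15 min before RNA isolation, marked new RNA, which was captured and sequenced. The groups were KO and WT at 0 h, KO and WT at 2 h, and KO and WT at 8 h, each with 3 libraries from clones A, B and C, so that p-values measure the spread between clones.

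The mark of this gene class, the 3′ stem-loop, was looked for as a 16-base hairpin after the stop codon in the GENCODE transcripts. It was found in 38 of the 41 genes whose model runs at least 40 bases past the stop codon, and 14 other models end before that. Of the 3 genes without a match, the model of Hist1h1a ends inside that region, and Hist1h2bc and Hist2h2be have long 3′ ends. Among the 38 genes, 8 forms of the hairpin occurred. The most frequent, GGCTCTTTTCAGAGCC, stood in 20 genes, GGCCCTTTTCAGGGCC in 6 and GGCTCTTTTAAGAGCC in 5. These sites are given for genes whose values follow, with the hairpin in capitals, 5′ to 3′ on the gene's own strand.

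Hist1h1d: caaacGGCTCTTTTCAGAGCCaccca

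Hist1h1e: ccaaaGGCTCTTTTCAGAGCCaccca

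Hist2h3c1: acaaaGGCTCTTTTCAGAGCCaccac

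Hist1h3e: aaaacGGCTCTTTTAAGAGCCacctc

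Hist1h3g: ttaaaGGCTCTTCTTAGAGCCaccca

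Hist1h4a: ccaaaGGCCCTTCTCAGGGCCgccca

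Hist4h4: acaaaGGCCCTTTTCAGGGCCcacaa

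The printed hairpins of Hist1h3g and Hist1h4a each occurred in that gene alone. Hist1h1d, Hist1h1e and Hist2h3c1 share one hairpin, although their values at 2 h of 4OHT, given later, went in opposite directions.

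Promoters, taken as 250 bases before to 50 bases after the start in the RefSeq table for GRCm38.p6, were found for 50 of the 55 genes. The letters CCAAT, on either strand, stood in 84.0% of these 50 and in 37.4% of all 32851 promoters of that length. They were in all H1 (5), H2A (12), H2B (12) and H3 (10) promoters found, and in 3 of 11 H4 promoters. TATAAA stood in 60.0% of the 50 and in 13.6% of all promoters, and the octamer ATTTGCAT in 22.0% and 1.7%, in 5 H2A and 6 H2B promoters. In 7 pairs, an H2A and an H2B gene point away from each other and their promoter windows overlap by 252 to 279 bases. Windows of 4 genes follow, with CCAAT, its reverse ATTGG and TATAAA in capitals. Hist1h1b stands for the H1 genes, Hist1h2ak for a window shared with an H2B gene (Hist1h2bn), and Hist2h3c1 and Hist1h4a for genes whose values set them apart below.

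Hist1h1b (chr13:21780576-21780875, minus strand): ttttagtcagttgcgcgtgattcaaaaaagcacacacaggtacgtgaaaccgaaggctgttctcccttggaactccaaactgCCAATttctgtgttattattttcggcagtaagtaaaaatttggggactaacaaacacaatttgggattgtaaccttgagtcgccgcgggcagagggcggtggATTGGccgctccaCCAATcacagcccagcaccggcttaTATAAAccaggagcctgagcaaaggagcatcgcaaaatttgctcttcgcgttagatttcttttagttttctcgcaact

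Hist1h2ak (chr13:21753863-21754162, minus strand): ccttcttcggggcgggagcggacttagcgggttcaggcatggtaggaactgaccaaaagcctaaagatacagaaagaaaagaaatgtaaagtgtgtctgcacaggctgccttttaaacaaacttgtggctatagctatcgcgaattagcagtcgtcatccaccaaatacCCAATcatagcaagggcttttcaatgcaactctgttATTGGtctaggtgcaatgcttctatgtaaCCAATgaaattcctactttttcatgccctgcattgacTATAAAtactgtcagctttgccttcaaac

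Hist2h3c1 (chr3:96246435-96246734, plus strand): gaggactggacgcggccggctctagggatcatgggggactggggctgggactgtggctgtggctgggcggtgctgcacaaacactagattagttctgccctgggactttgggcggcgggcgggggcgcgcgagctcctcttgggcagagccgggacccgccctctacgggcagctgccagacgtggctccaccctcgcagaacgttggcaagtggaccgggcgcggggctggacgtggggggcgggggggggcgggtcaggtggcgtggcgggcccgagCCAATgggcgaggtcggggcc

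Hist1h4a (chr13:23761200-23761499, minus strand): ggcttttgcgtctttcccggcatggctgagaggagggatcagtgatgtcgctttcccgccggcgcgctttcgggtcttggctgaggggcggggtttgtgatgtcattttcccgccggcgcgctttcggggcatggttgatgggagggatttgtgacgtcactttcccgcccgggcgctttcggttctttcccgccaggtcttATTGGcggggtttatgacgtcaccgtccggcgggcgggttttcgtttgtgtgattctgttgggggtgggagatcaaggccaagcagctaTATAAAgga

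The Hist1h1b window holds CCAAT 2 times, ATTGG 1 time and TATAAA 1 time, and the Hist2h3c1 window holds CCAAT 1 time and no TATAAA. A match describes the letters of a window and says nothing of what binds there.

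Because the copies are alike, reads from many members cannot be placed with certainty. Of all 50-base windows in a member's transcript, a median of 54.2% occurred in no other gene, and within the coding part 27.4%. Genes annotated as overlapping the member were left aside in this count, so windows shared with them count as unique. The coding medians were 78.1% for H1, 18.3% for H2A, 22.8% for H2B, 15.3% for H3 and 31.0% for H4. Values of the core histone genes are therefore less certain than those of the H1 genes, and how the authors' counting treated reads that map to several genes is not given in the sources used here. Of the members, 18 overlap another annotated gene, among them the H1 gene Hist1h1e, and without a stated strand their reads cannot be told apart.

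Med24 itself had 39.5, 41.7 and 35.5 CPM (counts scaled to a common library total, with TMM factors) in KO clones A, B and C at 0 h, against 528, 602 and 515 CPM in WT. At 2 h it had 43.1 to 49.2 CPM in KO and 1520 to 1775 CPM in WT, and at 8 h 34.0 to 42.8 CPM in KO and 399 to 407 CPM in WT. Its log2 fold change was -3.81 ± 0.08, -5.14 ± 0.08 and -3.35 ± 0.08 at 0, 2 and 8 h, and every KO library lay below every WT library of its time. All 10 of 10 embryonic stem cell markers listed were detected, and their summed level lay between 1676 and 2660 CPM in all libraries. Of 7 fibroblast markers 1 was at 0 in every library, and they summed to at most 8.76 CPM. Primitive endoderm markers (6 genes) summed to 27.8 to 33.4 CPM in KO and 9.96 to 14.5 CPM in WT at 0 h, 27.4 to 33.9 CPM in KO and 13.6 to 23.6 CPM in WT at 2 h, and 17.96 to 22.3 CPM in KO and 5.94 to 7.77 CPM in WT at 8 h. The part of these cells in the histone results was not tested.

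Of the 18 libraries, 3 were marked by a large share of a few very abundant transcripts. A set of 13 very abundant transcripts, of which Cdk8 was the highest, was picked because their levels varied together with Cdk8 between clones of a group. They held 34.2% of all counts in KO 2 h clone A, 36.4% in KO 8 h clone B and 43.9% in KO 8 h clone C, against 17.7% to 24.0% elsewhere. The next highest share, 24.0%, was that of WT 0 h clone B, which is the upper end of that range. This library was added to the 3 after the data were seen, and the 4 together are called those that stood apart. In 3 of these 4 libraries the summed CPM of the 55 histone genes was also the highest of its group, at 1541 CPM in KO 2 h A, 1668 CPM in KO 8 h C and 2107 CPM in WT 0 h B. The main counts of calls are therefore given with and without these libraries, and the part of the abundant genes in those results was not tested. Shares called among all genes are given for the fit of all 18 libraries alone, not for fits that leave libraries out.

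**Figure D1:**
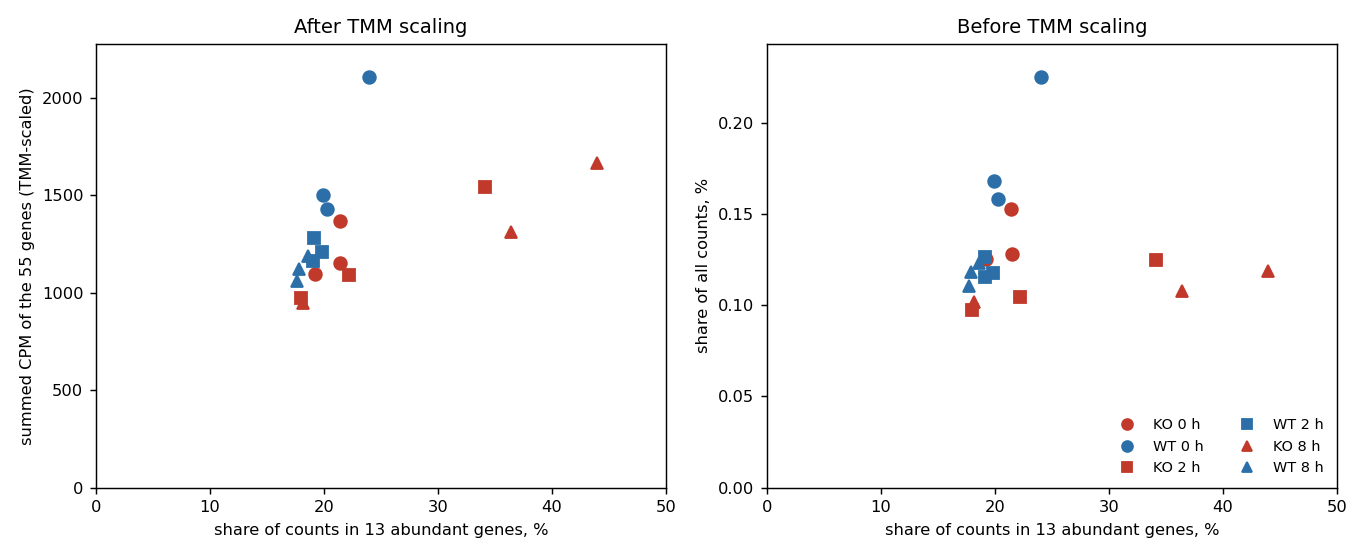
Level of the 55 histone genes in each of the 18 libraries against the percentage of counts held by 13 abundant genes, as summed CPM after TMM scaling (left) and as a percentage of all counts before it (right). Colour marks KO (red) and WT (blue) and shape the hours of 4OHT. After scaling, the 3 KO libraries with shares of 34.2% or more sit above the other KO libraries of their times, and WT 0 h B, at 2107 CPM and 0.225% of counts, is the highest point in both panels.

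Together the 55 genes took 7883 to 17185 counts per library. That was 0.125% to 0.153% of counts in KO and 0.158% to 0.225% in WT at 0 h, 0.0972% to 0.125% in KO and 0.115% to 0.127% in WT at 2 h, and 0.102% to 0.119% in KO and 0.111% to 0.123% in WT at 8 h. After scaling, their summed level averaged 1207 ± 143 CPM in KO and 1680 ± 371 CPM in WT at 0 h (SD, n = 3 each, as for all group means here). At 2 h it averaged 1202 ± 300 CPM in KO and 1219 ± 59 CPM in WT, and at 8 h 1309 ± 360 CPM in KO and 1124 ± 66 CPM in WT. No spike-in is named, so a change is one of share, measured against whatever else was in the same library.

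Levels differed widely between copies of one class. Levels per kilobase use the shorter of the RefSeq and GENCODE lengths, and the order within a class can depend on that choice. These lengths were 776 and 7425 bases for Hist1h1d, and 439 and 2863 bases for Hist4h4. On the shorter length, Hist1h1d and Hist1h1a led the linker class with mean levels of 159 and 157 CPM per kb over all libraries. Hist1h1e had 40.4 CPM per kb. Hist2h2bb had the highest level of H2B, 219 CPM per kb, but it overlaps Gm20628 and Gm42743, and the next was Hist1h2bg with 44.8 CPM per kb. In H2A, Hist1h2ak (53.2 CPM per kb) and Hist1h2ab (24.0) led, in H3 Hist1h3c (78.9) and Hist1h3e (65.0), and in H4 Hist1h4d (125) and Hist4h4 (108). Hist2h2be, an H2B gene also expressed outside S phase, was lowest of its class with 0.889 CPM per kb. Its length was taken as 2620 bases, against 381 for Hist2h2bb.

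**Figure D2:**
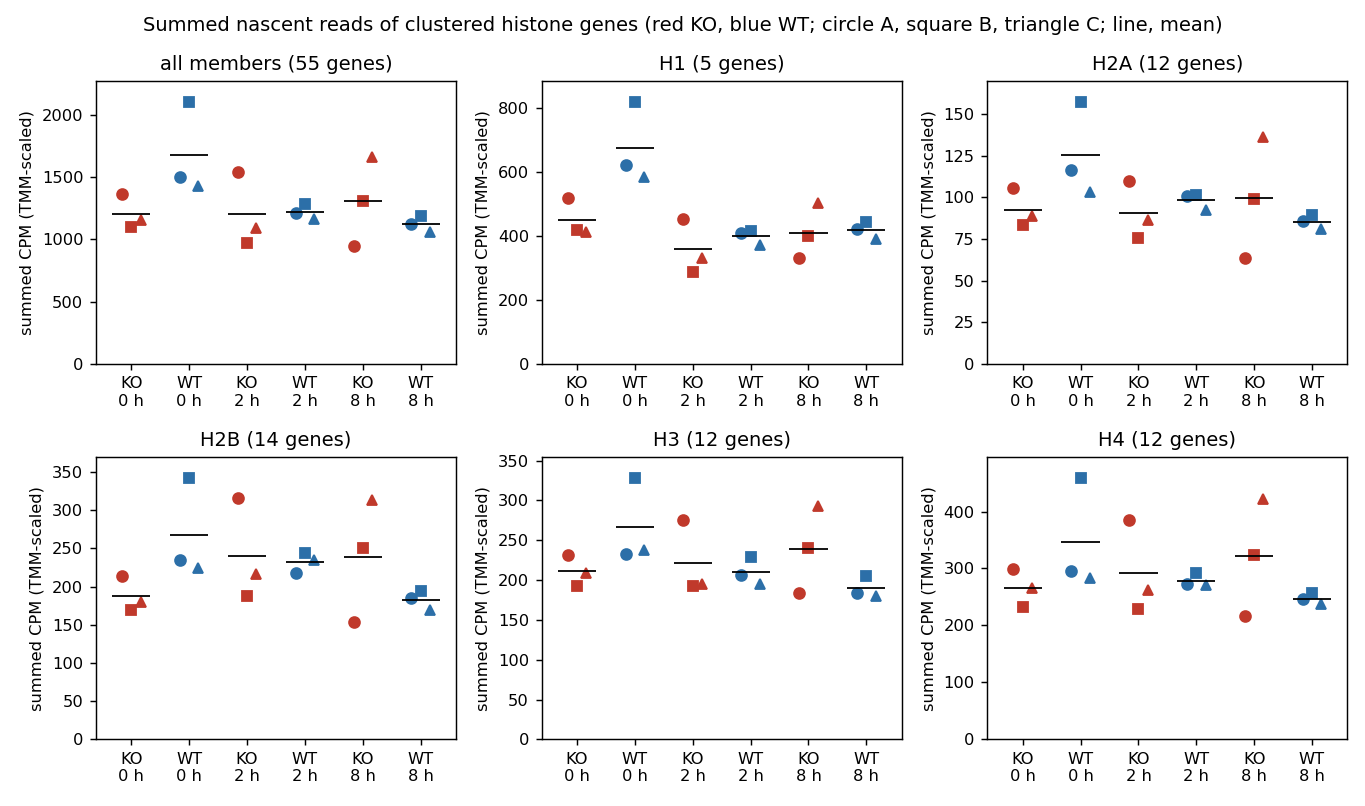
Summed CPM (TMM-scaled) of all 55 histone genes and of each class, for each library, with KO (red) to the left of WT (blue) at each time; circles, squares and triangles are clones A, B and C, and lines are means of 3. WT 0 h lies highest in every panel on average, at 675 CPM for H1 against 450 CPM in KO 0 h, while the KO 2 h and KO 8 h clones are spread widely.

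The first comparison asks what loss of Med24 does before ERK is activated. At 0 h, 16 of the 55 genes were lower in KO and 0 were higher, and in the same comparison 9.64% of all genes tested were called lower and 6.81% higher (adjusted p under 0.05). The members' share called lower, 29.1%, was above that background. The median log2 fold change of the members was -0.41, against 0.01 for all genes tested. Leaving out WT 0 h B brought the count to 4 (7.27%) and the median to -0.20, so that count depends on 1 library. Without the 3 libraries of high share, which enter through the shared estimate of spread, it was 37. These are bulk libraries, in which fewer cells making histone RNA and less RNA per cell cannot be told apart.

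All 5 linker histone genes were lower in KO at 0 h. Hist1h1b (chr13:21779883-21780625) had 106, 78.0 and 75.3 CPM in KO clones A, B and C, against 137, 185 and 128 CPM in WT. Hist1h1d (chr13:23553262-23560686) had 137, 118 and 109 CPM in KO and 164, 228 and 149 CPM in WT. In both genes, every KO clone lay below every WT clone. Hist1h1c had 89.8 to 107 CPM in KO and 123 to 152 CPM in WT. How often 3 clones separate from 3 in this way among all genes tested was not counted, here or in later comparisons. The log2 fold change was -0.79 ± 0.13 (SE) for Hist1h1b, with an adjusted p of 5.61e-05 by edgeR's quasi-likelihood test with Benjamini-Hochberg adjustment. The other H1 genes lay between -0.57 and -0.46, with adjusted p-values from 0.000606 to 0.0318 in the same edgeR test. Without WT 0 h B, Hist1h1b (-0.62) and Hist1h1d (-0.37) were still called and the other 3 were not, and without the 4 libraries of highest abundant share all 5 were called.

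Among core histones, 3 of 12 H2A, 3 of 14 H2B, 2 of 12 H3 and 3 of 12 H4 genes were lower in KO at 0 h. With WT 0 h B left out these counts were 1 H2A, 0 H2B, 1 H3 and 0 H4. With KO 0 h B left out they were 1, 2, 1 and 0, so most of the core histone calls depend on single libraries. Without all 4 libraries that stood apart the counts were 1 H2A, 3 H2B, 1 H3 and 2 H4. The lowest value among genes of at least 5 CPM was that of Hist1h2bh, with 6.09, 4.04 and 4.86 CPM in KO and 8.51, 11.7 and 7.20 CPM in WT. Its log2 fold change was -0.86 ± 0.21. Hist2h2ac (-0.68 ± 0.18) and Hist1h2ac (-0.67 ± 0.21), both H2A genes, came next. Without WT 0 h B, Hist1h2bh, Hist2h2ac and Hist1h2ac were not called. The only member with a value above 0 was Hist2h3c1, at 0.30 ± 0.18, which was not called.

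**Figure D3:**
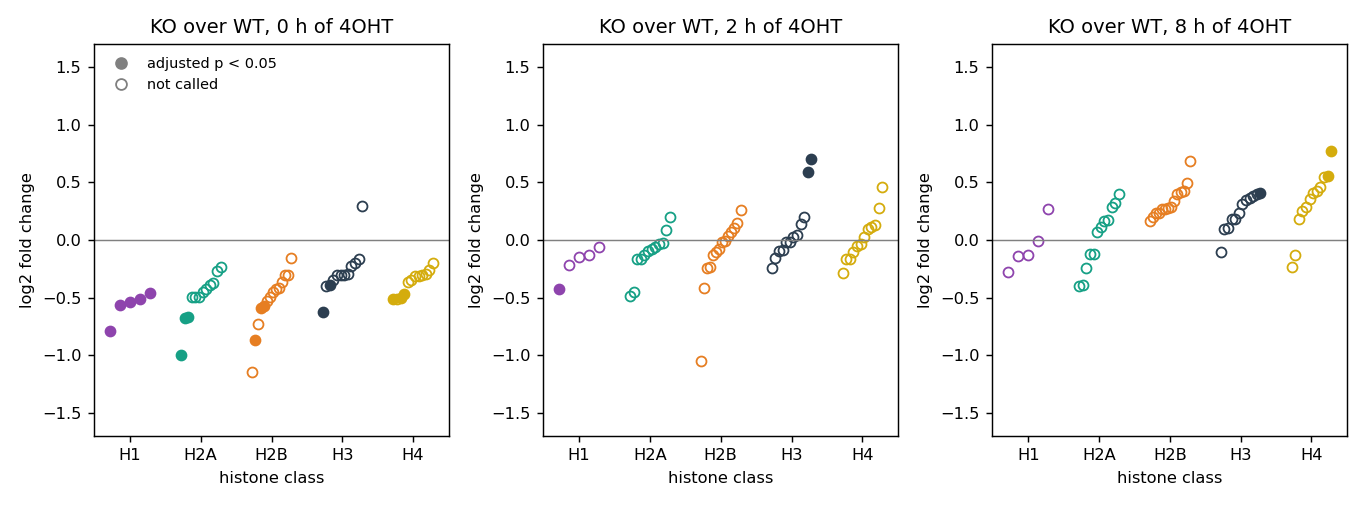
Log2 fold change of KO over WT for each of the 55 histone genes by class, at 0, 2 and 8 h of 4OHT; filled points have an adjusted p under 0.05 in edgeR's test. At 0 h 54 of 55 lie below 0 and 16 are filled; at 2 h the filled points above 0 are Hist2h3c1 and Hist2h3c2; at 8 h 43 lie above 0 and 3 are filled.

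The second comparison asks how cells with Med24 responded to ERK activation. In WT cells, 20 members were lower and 2 higher at 2 h than at 0 h, where 33.8% of all genes tested were called lower and 32.4% higher. The members called lower made up 36.4%, close to that background, while those called higher made up 3.64%, far below it. The median was -0.31, against -0.02 for all genes. At 8 h, 33 members (60.0%) were lower and 0 higher, against a background of 31.3% lower and 30.7% higher, with a median of -0.53 against -0.01. WT 0 h B enters both comparisons: without it, 9 and 15 members were lower, with medians of -0.12 and -0.28. As shares of the members, both lie below the 33.8% and 31.3% of all genes called lower with all libraries. The shares of all genes in the fit without WT 0 h B are not given. Whether an excess over background remained at 8 h without that library therefore cannot be told. Without the 3 libraries of high share 30 and 45 were lower.

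The H1 genes fell most uniformly. At 2 h all 5 were lower in WT, with or without any single library. Hist1h1e (chr13:23620629-23622558), which overlaps Hist1h2be and Gm11398, had 24.1, 23.3 and 20.6 CPM at 2 h in WT, against 40.05, 49.3 and 39.9 CPM at 0 h. The 2 times did not overlap, and the log2 change was -0.92 ± 0.17. Hist1h1b changed by -0.92 ± 0.13 and Hist1h1d by -0.88 ± 0.11, and without WT 0 h B the 3 values were -0.82, -0.74 and -0.68. At 8 h the H1 genes parted: Hist1h1a (chr13:23763666-23764406) and Hist1h1b each changed by -1.04 ± 0.13 against 0 h, whereas Hist1h1d changed by -0.39 ± 0.11 and Hist1h1e, at -0.19 ± 0.16, was not called. Without WT 0 h B, Hist1h1d (-0.20) was not called at 8 h. Hist1h1e had 38.9, 38.7 and 35.3 CPM at 8 h.

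**Figure D4:**
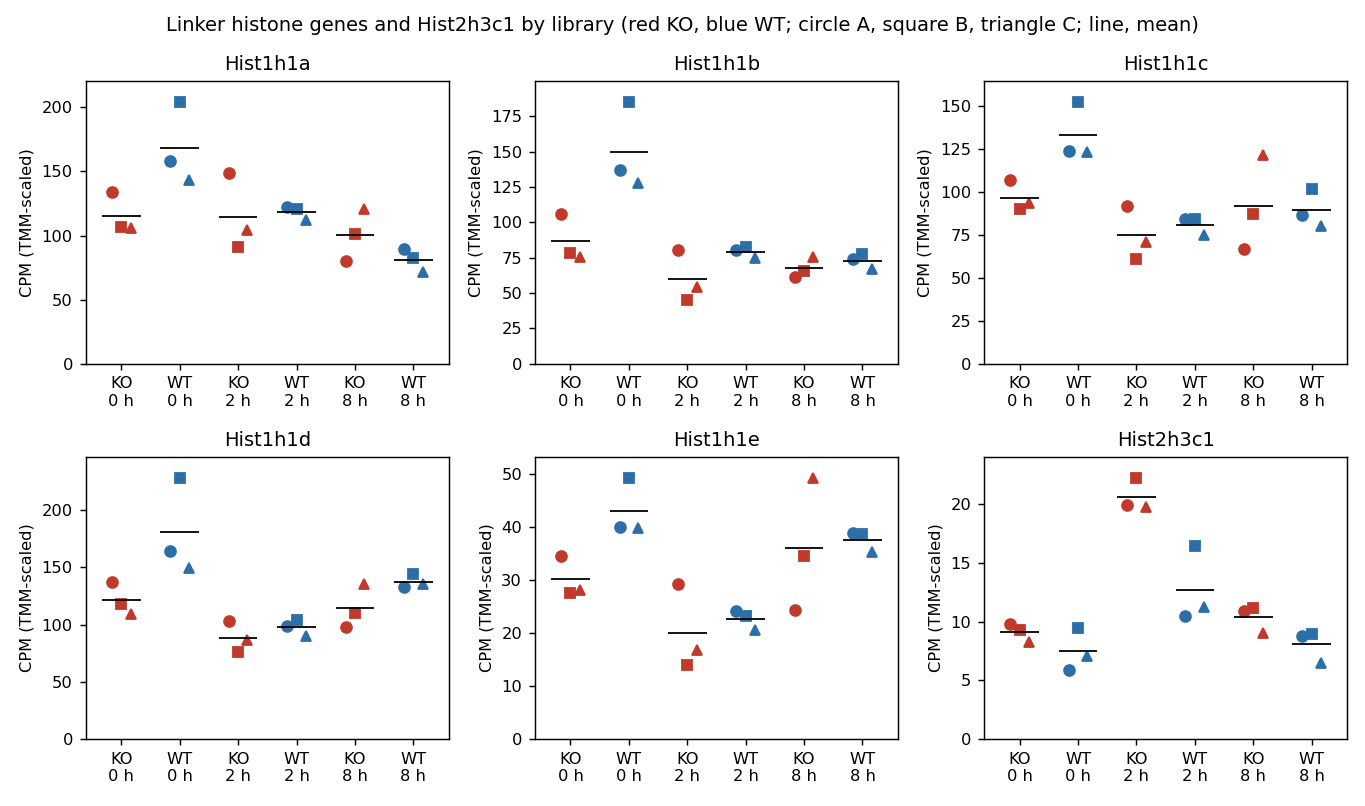
CPM (TMM-scaled) of the 5 linker histone genes and of Hist2h3c1 in each library, with KO (red) left of WT (blue) at each time; shapes are clones and lines are means of 3. Each H1 gene is lower at 2 h than at 0 h in WT; in WT, Hist1h1d and Hist1h1e are higher at 8 h than at 2 h, Hist1h1a and Hist1h1b are not; Hist2h3c1 peaks at 2 h, near 20 CPM in KO.

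Core histone genes in WT were called lower in part at both times. At 2 h, Hist1h3g (H3) had 22.3, 20.02 and 15.3 CPM, against 34.3, 39.96 and 30.5 CPM at 0 h, a log2 change of -0.87 ± 0.14. Hist1h2af (H2A) changed by -0.79 ± 0.17. At 8 h, 7 of 12 H2A, 9 of 14 H2B, 5 of 12 H3 and 8 of 12 H4 genes were lower. Without WT 0 h B, 3 H2A, 2 H2B, 4 H3 and 3 H4 genes were lower at 8 h, and without all 4 libraries that stood apart 5, 4, 5 and 7. Hist1h2bp (H2B) had 3.46, 3.54 and 4.18 CPM at 8 h and 6.51, 9.19 and 6.24 CPM at 0 h, a log2 change of -0.97 ± 0.21. Hist1h2af changed by -0.93 ± 0.17. Hist1h2af, Hist1h2bp and Hist1h3g were all called at 8 h also without WT 0 h B. Hist4h4, the lone member on chromosome 6, had 36.0, 34.7 and 35.6 CPM at 8 h and 51.8, 89.0 and 45.9 CPM at 0 h, and its log2 change was -0.80 ± 0.16. Hist1h2bc, an H2B gene with no hairpin found in its long 3′ end, averaged 18.7 ± 2.5 CPM at 8 h and 18.1 ± 4.0 CPM at 0 h in WT and was called in no comparison.

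In KO cells members were called in both directions. At 2 h, 6 members were higher and 7 lower than at 0 h, below the 31.5% higher and 35.2% lower among all genes tested, with a median of 0.05 against -0.05. All 7 of those lower were among the 20 lower in WT, which is 7 of 7 in KO and 7 of 20 in WT. In WT 33.8% of all genes tested were lower at 2 h, and how many of all genes were lower in both was not counted. The 6 higher were Hist2h3c1 and Hist2h3c2, described below, and 4 H2B genes, among them Hist1h2bm (0.64 ± 0.27) and Hist1h2bj (0.50 ± 0.22). With KO 2 h A alone left out, or KO 0 h B alone, 0 H2B genes were higher. Hist1h2bj stood at 0.25 without KO 2 h A. H1 genes were 4 of the 7 lower, and Hist1h1a, at -0.03 ± 0.13, was not called. Hist1h1e had 29.3, 13.9 and 16.8 CPM at 2 h and 34.6, 27.7 and 28.2 CPM at 0 h in KO. Clone A at 2 h, the library with 34.2% of counts in abundant genes, overlapped the 0 h clones, while B and C lay below them, and the log2 change was -0.63 ± 0.19. Without the 3 libraries of high abundant share, 13 members were lower and 4 higher at 2 h in KO, all 5 H1 genes among the lower, and the median was -0.13.

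At 8 h in KO, 3 members were higher and 2 lower than at 0 h, against 28.2% higher and 29.6% lower of all genes tested, with a median of 0.14. Hist1h2bh (0.68 ± 0.22), Hist1h2bl (0.45 ± 0.19), both H2B, and the H3 gene Hist1h3f (0.44 ± 0.17) were higher, and Hist1h2af (-0.68 ± 0.19) and Hist1h1b (-0.38 ± 0.14) were lower. The KO 8 h clones did not act alike: Hist1h2bl had 10.9, 18.6 and 21.2 CPM in clones A, B and C, against 12.98, 12.4 and 9.48 CPM at 0 h. Clone A lay within the 0 h range and clones B and C, those of high abundant share, above it. With clone A as the only KO 8 h library, 0 members were higher and 15 lower, and the values of Hist1h2bl (-0.09) and Hist1h3f (-0.02) changed sign. Scaling bears on this too: by library size alone, the members' medians in KO were -0.24 at 2 h and -0.22 at 8 h, where the medians of all genes were -0.33 and -0.38.

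Hist2h3c1 and Hist2h3c2, H3 genes of the Hist2 cluster, went the other way from the H1 genes at 2 h. In KO, Hist2h3c1 (chr3:96246685-96248509) had 19.8, 22.2 and 19.7 CPM at 2 h, against 9.77, 9.29 and 8.27 CPM at 0 h. In WT it had 10.4, 16.4 and 11.2 CPM at 2 h, against 5.88, 9.47 and 7.08 CPM at 0 h. Neither kind of cell overlapped between the 2 times, and at 2 h every KO clone was above every WT clone. The log2 change was 1.17 ± 0.15 in KO (adjusted p = 5.06e-08) and 0.77 ± 0.17 in WT (adjusted p = 0.000270) in edgeR's quasi-likelihood test with Benjamini-Hochberg adjustment. Hist2h3c2 (chr3:96238108-96239127) changed by 1.45 ± 0.20 in KO, from libraries of 6.56, 8.50 and 8.76 CPM at 2 h and 2.41, 3.43 and 2.92 CPM at 0 h, and by 0.62 ± 0.21 in WT.

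These were the 2 members higher in WT at 2 h, and also the 2 members higher in KO than in WT at 2 h, at 0.71 ± 0.14 for Hist2h3c1 and 0.59 ± 0.18 for Hist2h3c2. Without the 3 libraries of high share both stayed called in all of these comparisons, at 0.74 and 0.70 for KO over WT. Scaled by library size alone, Hist2h3c2 was called in KO (1.17) but not in WT (0.46) nor between KO and WT (0.50). The difference between their KO and WT responses was not called (0.41 ± 0.23 and 0.82 ± 0.30, adjusted p = 0.282 and 0.0671 by edgeR), but without the 3 libraries of high share that of Hist2h3c2 was (0.94). By 8 h neither differed from 0 h by the test in KO or in WT. Across the 18 libraries their log2 CPM did not track the mean of the other members (r = -0.09 and -0.08), while the next lowest was Hist1h2an at 0.23 and the highest Hist1h3c at 0.94. No coding window of 50 bases is unique to either gene, and the GENCODE model of Hist2h3c1 overlaps Gm20634 on the same strand, so which locus gave these reads is uncertain.

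After ERK activation, KO and WT cells differed in few members. At 2 h, 2 members (3.64%) were higher in KO and 1 lower, against 10.8% higher and 12.9% lower of all genes tested, with a median of -0.06. The gene lower in KO was Hist1h1b, at 80.5, 45.2 and 54.0 CPM in KO and 80.5, 82.5 and 74.5 CPM in WT, with a log2 fold change of -0.42 ± 0.14. KO clone A matched the WT clones, and B and C lay below them. Without the 3 libraries of high share, 9 members were lower in KO, 4 of them H1 genes, and Hist1h1b stood at -0.66.

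At 8 h, 3 members (5.45%) were higher in KO and 0 lower, against 14.5% higher and 17.1% lower of all genes, and the median was 0.27. Those higher were Hist1h4a and Hist1h4k, both H4, and Hist1h3a. Hist1h4a (chr13:23760692-23761230) had 25.1, 37.3 and 54.1 CPM in KO and 20.98, 24.03 and 19.96 CPM in WT. The KO clones lay above the WT clones, but clone A by little and clone C by far, and the log2 fold change was 0.77 ± 0.20. Hist1h4k was 0.56 ± 0.20 and Hist1h3a 0.41 ± 0.15, and Hist1h3a had been lower in KO at 0 h (-0.39 ± 0.14). These calls at 8 h depend on clones. Without KO 8 h A 29 members were higher, and with A as the only KO 8 h clone 0 were higher and 6 lower (3 of them H1), with a median of -0.24. With library size alone, 27 of 55 values lay above 0, with 1 higher and 5 lower, and the median of all genes was -0.26.

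The difference between the responses, KO minus WT, was tested directly. At 2 h all 55 values lay above 0 with a median of 0.37, yet 1 was called, 1.82% against 6.60% higher among all genes. That gene was Hist1h4a (0.81 ± 0.27), and no member was called with the clone letter as a replicate block. Leaving out WT 0 h B, Hist1h4a (0.59) was not called, and the H2A gene Hist1h2an (1.13) was. At 8 h, again with all 55 above 0 and a median of 0.66, 18 members (32.7%) were called, all higher, against 7.88% higher and 8.88% lower of all genes. They were 2 H1, 1 H2A, 6 H2B, 5 H3 and 4 H4 genes. All 55 members share the same KO 8 h and WT 0 h libraries, so their common sign is not 55 separate observations.

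The 6 with the smallest p at 8 h were Hist1h1a (0.81 ± 0.19), Hist1h4a (1.12 ± 0.27), Hist1h3a (0.80 ± 0.20), Hist1h2bm (1.41 ± 0.39), Hist1h3g (0.73 ± 0.21) and Hist1h2bh (1.03 ± 0.29). For Hist1h2bm, an H2B gene, the libraries had 5.64, 8.82 and 10.1 CPM at 8 h and 5.86, 5.55 and 4.26 CPM at 0 h in KO, and 5.03, 5.19 and 4.06 CPM at 8 h and 5.01, 14.5 and 7.08 CPM at 0 h in WT. The highest of all 12 was WT 0 h B. Hist1h1a had 80.1, 101 and 121 CPM at 8 h and 134, 106 and 106 CPM at 0 h in KO, and 89.3, 82.7 and 71.8 CPM at 8 h and 158, 204 and 143 CPM at 0 h in WT. In WT, though not in KO, its 2 times did not overlap.

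Few of these differences held when the libraries that stood apart were left out. Without WT 0 h B, 4 of 55 members were called at 8 h, without the 3 libraries of high share 4, and without all 4 libraries 2. In that last fit the median was -0.03 and 26 of 55 values lay above 0. The 2 were the H1 genes Hist1h1a (0.35) and Hist1h1b (0.37), which were called without the 3 libraries of high share as well (0.51 and 0.55). There KO 8 h rests on clone A alone, which is assumed to vary like the other groups. Without KO 8 h A, 40 members were called. The 4 called without WT 0 h B are, as a share of the members, not above the 7.88% of all genes called higher with all libraries. The share of all genes without WT 0 h B is not given, so these values come from unlike fits.

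**Figure D5:**
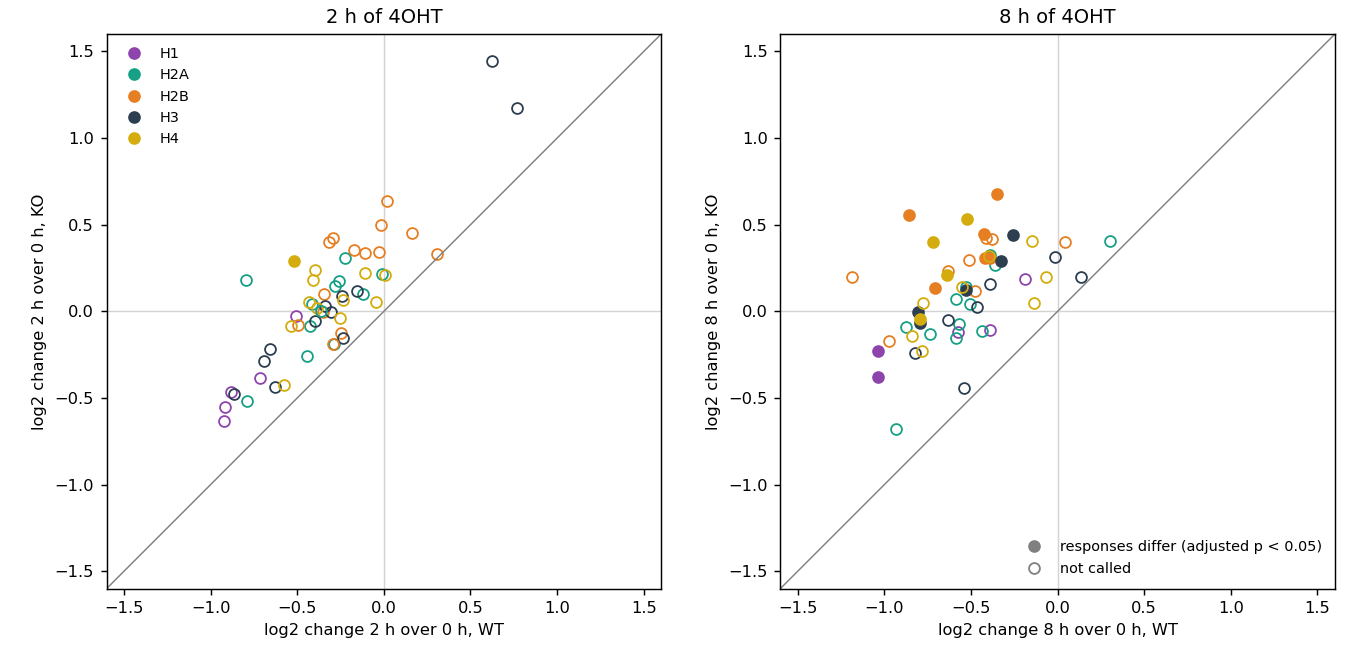
Log2 change at 2 h (left) and 8 h (right) of 4OHT over 0 h, in KO (vertical axis) against WT (horizontal axis), for each of the 55 histone genes coloured by class; the diagonal marks equal responses, and filled points are genes whose responses differed in edgeR's test. All points lie above the diagonal, 1 is filled at 2 h and 18 at 8 h; the pair at the upper right of the 2 h panel is Hist2h3c1 and Hist2h3c2.

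Genes that act on histone messages were read from lists, whose counts are set against the share called among all genes tested, as given above for each comparison. Of 7 listed regulators of histone transcription, 1 was lower in KO at 0 h, 0 were called at 2 h, and 1 was higher and 2 lower at 8 h (0 higher and 3 lower by library size alone, and 0 higher and 2 lower without the 3 libraries of high share). Npat, which organises the histone locus, had 106 ± 6.2 CPM at 2 h against 72.6 ± 0.68 CPM at 0 h in KO, and 96.3 ± 3.9 CPM at 2 h against 76.6 ± 2.2 CPM at 0 h in WT, with log2 changes of 0.55 ± 0.06 and 0.33 ± 0.06. Of 14 genes for processing and decay of these messages, 9 were higher (64.3%) and 2 lower at 2 h in KO, and 8 higher (57.1%) and 1 lower in WT, where 31.5% of all genes tested were higher in KO and 32.4% in WT. Leaving out the 3 libraries of high share gave 9 and 2 in KO, and 9 and 1 in WT. With library size alone these counts were 3 and 2 in KO, and 6 and 2 in WT. Slbp, the stem-loop binding protein, averaged 275 ± 2.7 CPM in KO and 192 ± 4.0 CPM in WT at 2 h, against 127 ± 7.0 CPM in KO and 114 ± 1.5 CPM in WT at 0 h. Its rise at 2 h was larger in KO than in WT by 0.37 ± 0.07 (adjusted p = 0.000486, edgeR's quasi-likelihood test with Benjamini-Hochberg adjustment).

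DNA replication genes are used, like these histones, in S phase, and 21 of 24 listed could be tested. In WT, 9 were higher (42.9%, not far from the 32.4% of all genes tested) and 0 lower at 2 h, against a background of 33.8% lower. At 8 h in WT, 1 was higher and 18 lower (85.7%), against 31.3% lower of all genes. In KO, 13 were higher (61.9%) and 0 lower at 2 h, and 0 higher and 12 lower (57.1%) at 8 h, against 31.5% higher and 35.2% lower of all genes at 2 h and 29.6% lower at 8 h. With the 4 libraries that stood apart left out, these counts were 9 higher at 2 h and 18 lower at 8 h in WT, and 13 higher at 2 h and 11 lower at 8 h in KO. By library size alone the 2 h counts turned to 2 higher in WT and to 0 higher and 5 lower in KO, and the 8 h counts were 14 lower in WT and 21 lower in KO. Pcna, the polymerase clamp, had the highest log2 change of the 21 at 2 h, 0.46 ± 0.05 in KO and 0.64 ± 0.05 in WT. The medians of the 21 were 0.17 in KO and 0.09 in WT. The H1 genes Hist1h1b and Hist1h1d fell in both. Between KO and WT, 10 of the 21 were higher in KO at 8 h and 0 lower, 3 of 21 higher at 0 h, and 1 of 21 at 2 h, where 14.5%, 6.81% and 10.8% of all genes were higher at 8, 0 and 2 h. Leaving out the 3 libraries of high share gave 4 higher and 1 lower at 8 h, and leaving out WT 0 h B gave 0 calls at 0 h. By library size alone 0 were called at 0 h and 2 h, and 0 were higher and 3 lower at 8 h.

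Histones made outside the clusters, most of which keep poly(A) tails and which include replacement variants, were split. Of 11 tested, 3 were higher and 3 lower in KO at 0 h, 5 higher and 1 lower at 2 h, and 4 higher and 0 lower at 8 h, where 6.81%, 10.8% and 14.5% of all genes were higher. With WT 0 h B left out 1 was higher and 3 lower at 0 h, and without the 3 libraries of high share 5 were higher and 2 lower at 2 h and 5 higher and 0 lower at 8 h. Scaled by library size alone, 0 were called at 0 h and 2 h, and 1 was higher and 1 lower at 8 h. H2afx, a variant phosphorylated at DNA breaks, averaged 116 ± 32 CPM in KO and 65.2 ± 2.5 CPM in WT at 8 h, and 111 ± 5.1 CPM in KO and 115 ± 18 CPM in WT at 0 h. Its 8 h response differed between KO and WT by 0.85 ± 0.17. H2afy (macroH2A), by contrast, was lower at 2 h than at 0 h in both, by -0.57 ± 0.06 in KO and -1.02 ± 0.06 in WT. Of 19 histone chaperones tested, 1 was called at 0 h, lower in KO, while 7 were higher (36.8%) and 1 lower at 2 h and 5 higher (26.3%) and 1 lower at 8 h. Leaving out the 3 libraries of high share gave 7 higher and 0 lower at 2 h and 3 higher and 2 lower at 8 h, and 0 were called at 0 h without WT 0 h B. By library size alone these counts were 0 at 0 h and 2 h, and 0 higher and 5 lower at 8 h.

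Among all other genes tested, those whose log2 CPM ran most like the members' mean over the 18 libraries were Ifitm3 (r = 0.79), Ints10 (0.76), Gm37194 (0.73), Fgfr2 (0.72) and Vwa3a (0.70). These points share library and scaling, and Fgfr2 is itself 1 of the 13 abundant genes.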

How the data were processed

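Nascent RNA of 18 libraries (6 groups of 3) was analysed from the authors' deposited table of whole-number counts per gene, used as deposited. STAR, featureCounts, DESeq and mm10 are named in the submitters' processing notes; their versions, the annotation, the strand setting and the handling of multiply mapped reads are not stated in what was used here. Totals ranged from 6691177 to 14541145 counts, where 3 counts, the most that a count of 0 allows, equal 0.206 to 0.448 CPM before scaling; this covers counting error only.

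Genes kept by filterByExpr (14128) were scaled by TMM and fitted in edgeR 4.0.16 (R 4.3.3) in 1 quasi-likelihood model of 6 group means, with 9 contrasts and Benjamini-Hochberg adjustment over all genes at 0.05. The model was tested on simulated data. Alternatives were DESeq2 1.42.0 and other scalings, filters and libraries. The members, lists and tests were chosen with earlier results of these data known. The text names Med24; the 2 members of highest level per kb in each class; in each comparison the 4 highest and 4 lowest called values of at least 5 CPM; up to 6 called differences of response; members called in opposite directions; some members known to differ in kind; and, from the lists, genes of small p. Hist2h3c1 at 0 h, Hist1h2af at 2 h in WT, the members named by a change of sign or a lost call, and genes named from lists over time were chosen after their values were seen. The abundant genes exceed 1000 CPM, vary within groups by an SD over 0.3 on the log2 scale and follow Cdk8 at r over 0.9. Lengths for levels per kb are the shorter of the GENCODE exons and the RefSeq span.

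Clone letters recur in every group. No same-letter pair of 45 had deviations from group means that correlated over 0.1 (range -0.10 to 0.083). No block was therefore fitted in the main model. In 15 of 18 libraries, however, the mean correlation with other groups was highest for the own letter, so a weak pairing is not excluded. No libraries of a group agreed within sampling noise.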

Additional observations from a re-analysis of the deposited data

Results flagged for a closer look

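The responses of KO and WT cells to 4OHT differed in a direct test for 1 member at 2 h (1.82%, below the 6.60% of all genes tested that were higher) and for 18 at 8 h (32.7%, against 7.88%). The 18 fell to 4 without WT 0 h B, a share of the members not above the 7.88% of all genes with all libraries. The share of all genes without WT 0 h B is not given. The count also fell without the 3 libraries of high share and without all 4, where KO 8 h rests on clone A alone. At 2 h the gene was Hist1h4a, whose log2 change was 0.81 larger in KO, and 0.59 and not called without WT 0 h B. At 8 h the named genes with larger log2 changes in KO were Hist1h1a (0.81), Hist1h4a (1.12), Hist1h3a (0.80), Hist1h2bm (1.41), Hist1h3g (0.73) and Hist1h2bh (1.03). The share of counts in abundant genes was 36.4% and 43.9% in KO 8 h clones B and C and 18.2% in clone A, and the part of this in the 8 h values was not tested.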

How the results depend on the processing

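Calls of members are given as higher or lower, KO over WT, later over earlier, or as larger responses in KO. Leaving out 1 library at a time gave, for KO over WT, 4 to 18 lower at 0 h (16 with all libraries), 1 to 2 higher and 0 to 3 lower at 2 h, and 1 to 29 higher and 0 to 2 lower at 8 h. In KO it gave 2 to 8 higher and 3 to 9 lower at 2 h, and 0 to 24 higher and 0 to 4 lower at 8 h. In WT it gave 1 to 3 higher and 9 to 24 lower at 2 h, and 15 to 38 lower at 8 h. Larger responses numbered 0 to 4 at 2 h and 4 to 40 at 8 h. Without the 3 libraries of high share, KO over WT had 9 lower at 2 h and 0 higher and 6 lower at 8 h, KO had 13 lower at 2 h and 0 higher and 15 lower at 8 h, and larger responses were 3 and 4. Without 4 libraries (WT 0 h B too, chosen after seeing the data) the same counts were 15, 0 and 13, 14, 0 and 19, 0 and 2, with 5 higher and 13 lower in WT at 2 h. Signs turned in both fits for Hist1h4k in KO over WT at 8 h (-0.0182 without 3 and -0.0184 without 4), and at 8 h in KO for Hist1h2bl (-0.0871 and -0.0874) and Hist1h3f (-0.0210 and -0.0210).

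By library size alone, KO over WT had 8 lower at 0 h, 1 higher at 2 h, and 1 higher and 5 lower at 8 h; KO had 2 higher and 14 lower at 2 h and 0 higher and 15 lower at 8 h; WT had 1 higher and 33 lower at 2 h; and larger responses were 0 and 3. With no filter on low counts, KO over WT had 35 lower at 0 h, 4 higher and 5 lower at 2 h, and 17 higher and 2 lower at 8 h, KO had 12 higher at 2 h and 14 higher at 8 h, WT had 33 lower at 2 h, and larger responses were 11 and 37. With DESeq2, KO over WT had 10 lower at 0 h and 0 at 2 h, KO had 3 higher and 3 lower at 2 h and 1 lower at 8 h, WT had 10 lower at 2 h, and larger responses were 0 and 9. With the clone letter as a replicate block, larger responses at 2 h were 0. In 15 of 18 libraries, deviations correlated most, on average, with libraries of the same letter in other groups. That is a hint from the data only. The causes were not tested. RLE scaling moved no count beyond 1.5 times. Medians of all genes shifted to as low as -0.38 under library size alone.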
